A study of Homo sapiens with 9 samples.

Results

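The desmosome genes described here are the 10 rows of the expression table whose symbols are DSP, DSG2, DSG3, DSC2, DSC3, PKP1, PKP2, PKP3, JUP and PERP, of 60564 identifiers in all. All 10 passed the filter on low values (1 FPKM or more in 3 or more of the 9 libraries) and were tested. DSC2 passed only through the groups in which it was higher, as given below. BxPC3 is an established cell line from a human pancreatic ductal adenocarcinoma. The tested groups were cells given 0.1 µM WB436B, of which the labels give only this code name, and cells that received a small interfering RNA (siRNA) directed at STAT3, a transcription factor that acts downstream of cytokine receptors. Both were set against vehicle-treated BxPC3 cells. Each group had 3 RNA-seq libraries that the labels call biological replicates. No genotype change or further agent is given for any group, and neither a non-targeting siRNA nor the time under treatment is given in the sources used here. Any effect of transfection itself and of losing STAT3 therefore cannot be told apart. Since the labels do not say whether a replicate was a separate culture, all p-values reflect how these libraries spread, which may be technical.

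Desmosomes are the spot-like junctions that rivet neighbouring epithelial cells together and tie them to the keratin cytoskeleton. In each, desmogleins (DSG) and desmocollins (DSC), calcium-dependent cadherins, reach across the gap between the cells. Inside the cell the armadillo proteins plakoglobin (JUP) and plakophilins (PKP) bind the cadherin tails, and desmoplakin (DSP) links them to keratin filaments. PERP is a membrane protein of the same junction and a known target of p53 and p63. DSG2 and DSC2 are the cadherins of simple epithelia, whereas DSG3, DSC3 and PKP1 are typical of stratified epithelia, and the adult pancreatic duct is a simple epithelium.

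Values are FPKM (fragments normalised for transcript length and for the fragments of the library), so levels of different genes are compared per length. A gene is called changed where the adjusted p of limma's moderated test on log2(FPKM + 1), with Benjamini-Hochberg adjustment over all 12747 tested identifiers, is below 0.05. Depth estimated from the files was 14900000 to 47200000 fragments a library, with the vehicle replicate 1 library the deepest and all others at 20400000 or below. STAT3, the siRNA target, stood at 10.5, 10.9 and 10.8 FPKM in WB436B libraries, 2.98, 2.58 and 3.02 FPKM in STAT3 siRNA libraries and 16.4, 15.8 and 15.1 FPKM in vehicle libraries. Its level was 68.0% of the vehicle mean in WB436B cells and 18.1% of it in STAT3 siRNA cells. All 7 epithelial and ductal markers checked were expressed, with a summed level of 1101.5 to 1224.8 FPKM in WB436B libraries, 1181.9 to 1260.5 FPKM in STAT3 siRNA libraries and 1218.3 to 1274.0 FPKM in vehicle libraries. Single markers were not stable beneath these sums. MUC1 was at 22.0% of the vehicle mean in WB436B cells and 20.0% in STAT3 siRNA cells, and KRT18 at 183% and 140%. Fibroblast markers summed to 0.721 to 0.881, 3.43 to 3.77 and 1.89 to 2.12 FPKM in WB436B, STAT3 siRNA and vehicle libraries, with 2 of 6 reaching 1 FPKM and COL1A2 at no more than 0.00485 FPKM in any library. Leukocyte markers summed to 2.9 to 3.05, 2.86 to 5.15 and 4.5 to 6.1 FPKM in the same groups, nearly all of it CD68, and 0 of 3 endothelial markers reached 1 FPKM. Their part in the results was not tested. In bulk RNA, fewer cells that express a gene and less RNA of it per cell cannot be told apart.

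Many genes differed between the groups, so counts of desmosome genes are read against that background. The median log2 fold change of all tested genes was -0.13 in WB436B against vehicle and 0.06 in STAT3 siRNA against vehicle, and it was -0.18 in WB436B against STAT3 siRNA. Calls over all tested genes were 5234 lower and 3168 higher in WB436B against vehicle, but 4160 and 4227 with median-of-ratios scaling. In STAT3 siRNA against vehicle they were 2838 lower and 3800 higher, and 3262 and 3063 with that scaling, and in WB436B against STAT3 siRNA they were 5621 and 2554, and 3832 and 4028 with it. Where it matters, a fold change is therefore also given relative to that median.

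BxPC3 cells carried transcripts of desmosomal cadherins of both kinds of epithelium. DSG2, the desmoglein of simple epithelia, was the more abundant desmoglein in every library. Among desmocollins DSC3 was the more abundant, and DSC2 was the least expressed of the 10 genes in every library. DSG1, DSG4, DSC1 and CDSN, which belong to the upper layers of skin or to hair, did not exceed 0.169 FPKM in any library.

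From high to low, mean levels in WB436B cells ran DSG2, PERP, DSP, JUP, PKP3, PKP1, DSC3, PKP2, DSG3 and DSC2, and the neighbours PERP and DSP overlapped, as did PKP2 and DSG3. In STAT3 siRNA cells the order was DSP, DSG2, JUP, PERP, PKP3, DSC3, DSG3, PKP1, PKP2 and DSC2, with overlap between JUP and PERP. Vehicle cells had PERP, DSG2, DSP, JUP, PKP3, DSG3, DSC3, PKP1, PKP2 and DSC2, with overlap between DSG2 and DSP and between DSG3 and DSC3. By mean level among the 12747 tested identifiers, DSG3 ranked 3650 in WB436B cells, 1530 in STAT3 siRNA cells and 1064 in vehicle cells. PKP2 moved the other way, ranking 3453 in WB436B cells, 5623 in STAT3 siRNA cells and 5711 in vehicle cells.

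**Figure D1:**
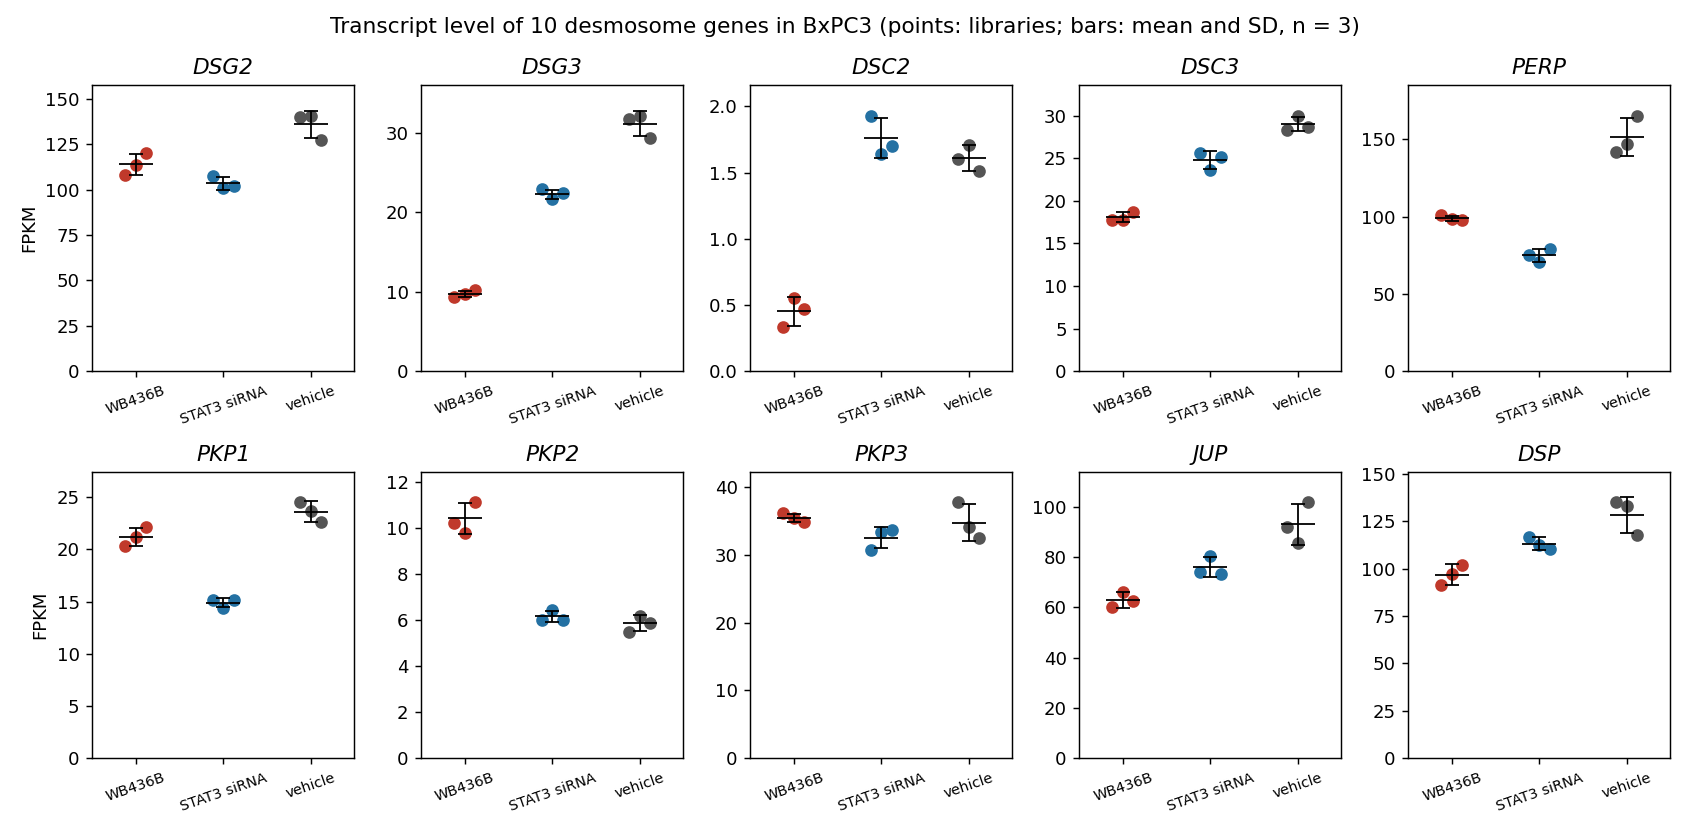
Transcript level in FPKM (vertical axes from 0, each panel with its own scale) of 10 desmosome genes in WB436B, STAT3 siRNA and vehicle libraries; points are libraries and bars the mean and SD of 3. DSG3 lies at 9.37 to 10.2 FPKM in WB436B libraries and at 29.4 to 32.2 FPKM in vehicle libraries, and PKP2 is the panel in which the WB436B libraries stand well above both other groups.

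Of the 10 genes, 8 fell and 1 rose in WB436B cells against vehicle, and PKP3 was not called. Over all tested genes 65.9% were called in this comparison, 41.1% as lower and 24.9% as higher. The groups did not overlap for 9 of the 10 genes, against 70.1% of all tested genes. The median log2 fold change of the 10 genes was -0.48. With median-of-ratios scaling, which brings the median of tested genes close to 0, the split was 6 lower and 2 higher. With libraries scaled to equal totals it was 6 lower and 1 higher. DSC2, counted as lower and as not overlapping, passed the filter only through the other groups. At a filter of 5 FPKM, where DSC2 was not tested, 7 of 9 desmosome genes were lower and 1 higher. Over all 7042 genes tested at that filter 2412 were lower and 2448 higher.

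STAT3 siRNA cells had 7 of the 10 genes lower than vehicle and 0 higher, and DSC2, PKP2 and PKP3 were not called. Among all tested genes 52.1% were called, 22.3% as lower and 29.8% as higher. The 7 called genes were those whose groups did not overlap, which held for 60.5% of all tested genes. The median over the 10 genes was -0.26. Both sets of counts share the same 3 vehicle libraries.

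Set directly against STAT3 siRNA cells, WB436B cells had 5 of the genes lower (DSG3, DSC2, DSC3, JUP and DSP) and 3 higher (PKP2, PKP1 and PERP). Over all tested genes 64.1% were called, 44.1% as lower and 20.0% as higher. None of the 10 genes overlapped between these groups, against 70.2% of tested genes without overlap, and the median of the 10 was -0.05. Median-of-ratios scaling turned the split round, with 3 lower and 5 higher. DSG2 and PKP3 were then called higher, and DSP and JUP were no longer called. DSC2 again passed the filter only through the groups other than WB436B. At the filter of 5 FPKM, without DSC2, 4 of 9 desmosome genes were lower and 3 higher. Over all 7042 genes tested at that filter 2583 were lower and 2046 higher.

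**Figure D2:**
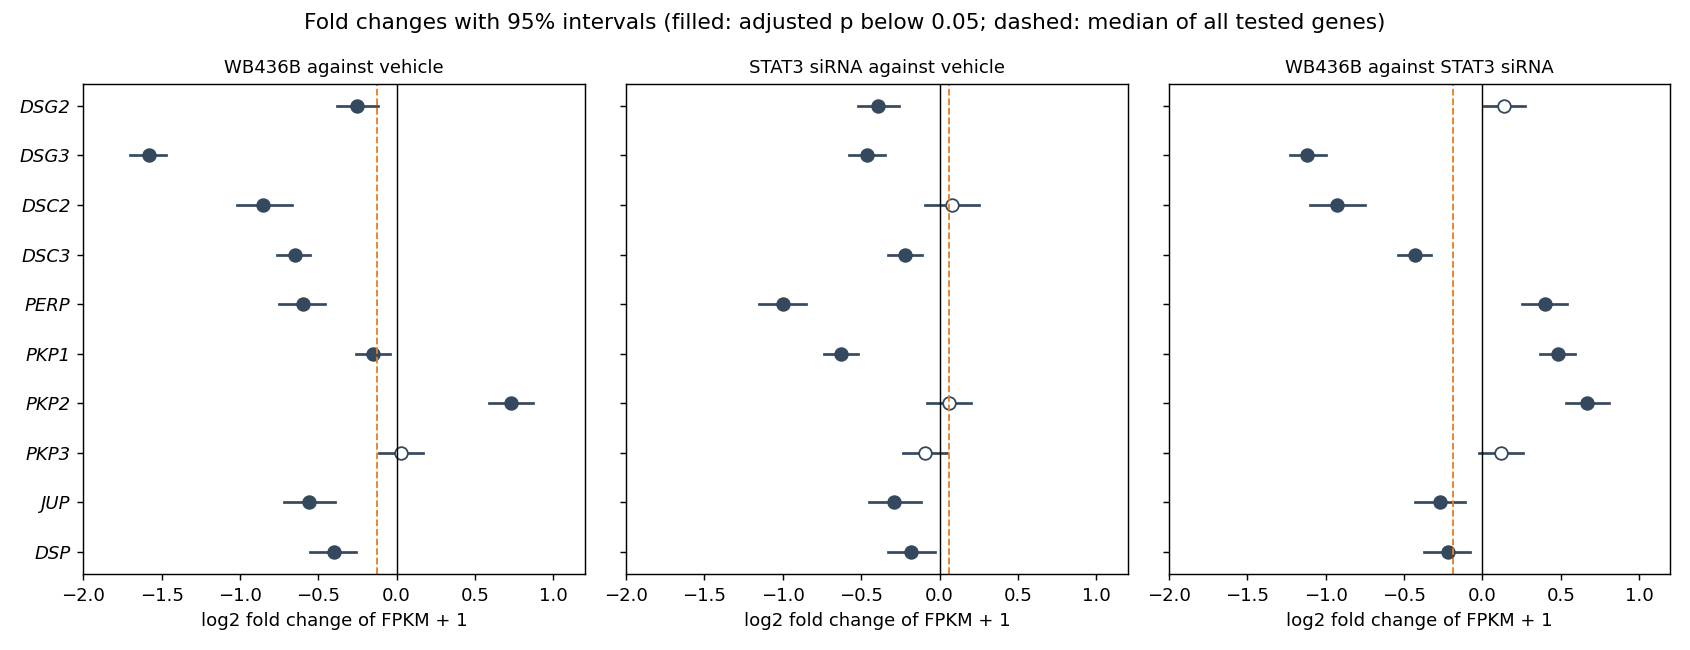
Log2 fold change of FPKM + 1 (horizontal axis) of each desmosome gene with its 95% interval, in WB436B against vehicle, STAT3 siRNA against vehicle and WB436B against STAT3 siRNA; filled points have an adjusted p below 0.05 and the dashed line is the median of all tested genes. DSG3 at -1.58 and PKP2 at 0.73 mark the ends in WB436B cells, while PERP at -1.0 and PKP1 at -0.63 lie lowest in STAT3 siRNA cells; the PKP1 value of -0.15 in WB436B cells and the DSP value of -0.22 in WB436B against STAT3 siRNA come to about 0 with median-of-ratios scaling.

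The 4 cadherin genes lie in 1 cluster on chromosome 18, where the order of protein-coding genes in RefSeq is DSC3, DSC2, DSC1, DSG1, DSG4, DSG3 and DSG2. The first and last genes of the cluster are therefore DSC3 and DSG2. To show how unlike the start regions of these neighbours are, the 250 bases before a RefSeq transcription start (assembly GRCh38.p14) are printed 5′ to 3′ on the gene's own strand, in lower case. Capitals mark matches, on either strand, to 3 of the motifs searched: the STAT motif TTCNNNGAA, the AP-1 motif TGANTCA and the GC box GGGCGG, with N any base. The Grainyhead motif AACCNGTT was searched as well. So was TEAD, as GGAATG. The TATA letters were TATAAA, and overlapping matches were allowed. RefSeq windows were matched by symbol for 8 of the 10 genes, with 10 windows in all, and none was used for PKP2 and PKP3. The desmoglein and desmocollin windows are followed by that of PERP.
DSG3, chr18:31447491-31447740, plus strand: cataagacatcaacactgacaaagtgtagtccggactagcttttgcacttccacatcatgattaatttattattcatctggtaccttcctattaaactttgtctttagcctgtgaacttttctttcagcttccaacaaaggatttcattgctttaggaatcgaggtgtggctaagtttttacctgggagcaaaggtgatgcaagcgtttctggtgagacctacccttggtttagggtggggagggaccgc
DSG2, chr18:31497927-31498176, plus strand: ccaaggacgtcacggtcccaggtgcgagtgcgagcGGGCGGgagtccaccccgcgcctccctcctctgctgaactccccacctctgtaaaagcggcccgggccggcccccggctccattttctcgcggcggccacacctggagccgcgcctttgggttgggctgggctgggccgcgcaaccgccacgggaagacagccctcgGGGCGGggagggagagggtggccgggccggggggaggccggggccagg
DSC3, chr18:31042743-31042992, minus strand: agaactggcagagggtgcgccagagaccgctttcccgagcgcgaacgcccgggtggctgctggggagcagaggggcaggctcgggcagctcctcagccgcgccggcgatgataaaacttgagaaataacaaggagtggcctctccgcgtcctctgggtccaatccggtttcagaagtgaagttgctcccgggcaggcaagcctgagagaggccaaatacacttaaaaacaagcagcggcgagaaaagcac
DSC2, chr18:31101261-31101510, minus strand: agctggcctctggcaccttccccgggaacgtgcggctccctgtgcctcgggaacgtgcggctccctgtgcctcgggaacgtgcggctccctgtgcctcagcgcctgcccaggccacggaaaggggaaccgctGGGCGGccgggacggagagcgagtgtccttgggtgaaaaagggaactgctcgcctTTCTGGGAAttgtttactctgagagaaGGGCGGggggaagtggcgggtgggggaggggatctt
PERP, chr6:138107420-138107669, minus strand: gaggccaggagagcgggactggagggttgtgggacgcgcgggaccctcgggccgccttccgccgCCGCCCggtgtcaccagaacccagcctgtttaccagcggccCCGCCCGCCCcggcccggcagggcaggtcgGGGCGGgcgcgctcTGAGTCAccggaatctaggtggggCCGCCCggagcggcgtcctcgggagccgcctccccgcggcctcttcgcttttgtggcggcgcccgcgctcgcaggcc

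The DSG3 window had a G and C content of 42.8% with 4 CpG dinucleotides, against 75.2% with 26 in the DSG2 window. Over 35116 RefSeq windows of the same length the median was 58.0% with 11 CpG, and the 10th and 90th percentiles of G and C content were 38.0% and 75.2%. DSG2 had 2 GC boxes, which 42.6% of all windows hold, while DSG3 and DSC3 had no match to any of the 6 motifs. DSC3 was intermediate in composition, at 60.4% with 18 CpG. The DSC2 window, of the second of its RefSeq starts, held the STAT letters TTCTGGGAA, whose first base lies 63 bases before the start, and 6.57% of all windows hold this motif. The window of the other DSC2 start (chr18:31102422-31102671) had no STAT match, 1 GC box and 59.6% G and C with 12 CpG. PERP had an AP-1 match, TGAGTCA, whose first base lies 101 bases before the start, beside 5 GC boxes of which some overlap one another, and AP-1 letters were again in 6.57% of windows. No Grainyhead, TEAD or TATA letters were found in the 10 windows, against 1.49%, 11.9% and 10.7% of all windows. A match describes the letters only, and binding was not measured.

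Among the desmogleins, DSG3 fell far more than its neighbour DSG2 in WB436B cells. DSG3, the desmoglein of basal layers and the main autoantigen of pemphigus vulgaris, had 9.37, 9.69 and 10.2 FPKM in WB436B libraries, 22.9, 21.7 and 22.4 FPKM in STAT3 siRNA libraries and 31.8, 32.2 and 29.4 FPKM in vehicle libraries. The 3 groups did not overlap, with every WB436B library below every STAT3 siRNA library and these below every vehicle library. WB436B cells retained 31.3% of the vehicle mean (log2 fold change -1.58, SE 0.0503, limma adjusted p = 9.1e-08) and STAT3 siRNA cells 71.6% (-0.46, SE 0.0503, adjusted p = 0.00011). The direct difference, WB436B against STAT3 siRNA, was -1.12 (adjusted p = 6.9e-07), and relative to the median of tested genes it was -0.93. These 3 calls held under the 3 other scalings and with each library left out. DSG3 rests on an estimated 925 to 8303 fragments a library.

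DSG2 was also called lower under both treatments. It had 108.2, 113.5 and 120.0 FPKM in WB436B libraries, 107.5, 100.6 and 102.2 FPKM in STAT3 siRNA libraries and 140.0, 140.7 and 127.5 FPKM in vehicle libraries. All vehicle libraries were the highest, and the lowest WB436B library was just above the highest STAT3 siRNA library. The log2 fold change was -0.39 in STAT3 siRNA cells (SE 0.0565, adjusted p = 0.00054). In WB436B cells it was -0.25 (SE 0.0565, adjusted p = 0.004), and this call was lost when libraries were scaled to equal totals (-0.18, adjusted p = 0.075) or by median of ratios (-0.09, adjusted p = 0.18). WB436B against STAT3 siRNA gave 0.14 with an interval of 0.01 to 0.27 (adjusted p = 0.061). Exons of DSG2 share 2.76% of their bases with the antisense gene DSG2-AS1, listed at 0.112 to 0.217 FPKM in WB436B, 0.235 to 0.395 FPKM in STAT3 siRNA and 0.378 to 0.531 FPKM in vehicle libraries; none of the other 9 genes shares exon bases with another gene in GENCODE release 29.

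The make-up of desmoglein transcripts set WB436B libraries apart. DSG3 was 7.97%, 7.87% and 7.82% of summed DSG2 and DSG3 FPKM in WB436B libraries, 17.5%, 17.7% and 18% in STAT3 siRNA libraries and 18.5%, 18.6% and 18.7% in vehicle libraries. WB436B libraries were all below 8%, while the other groups lay close together without overlapping. The difference was -10.8 percentage points for WB436B against vehicle, -0.889 for STAT3 siRNA against vehicle and -9.86 for WB436B against STAT3 siRNA. Each had p = 0.1 in a two-sided exact permutation test, the smallest that 3 against 3 libraries allow, and 0.133 after adjustment over the 12 share and ratio comparisons made. A share within a library does not depend on the scaling between libraries. The summed desmoglein level as deposited overlapped between the treatments, at 123.7 ± 6.33 FPKM in WB436B and 125.7 ± 4.21 FPKM in STAT3 siRNA cells. It was 167.2 ± 8.93 FPKM in vehicle cells (SD, n = 3). Unlike the shares, this sum depends on the scaling between libraries.

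Both desmocollins fell in WB436B cells. DSC3, the desmocollin of stratified epithelia, had 17.7, 17.8 and 18.7 FPKM in WB436B libraries, 25.6, 23.6 and 25.2 FPKM in STAT3 siRNA libraries and 28.3, 30.0 and 28.7 FPKM in vehicle libraries. The order was that of DSG3, again with no overlap, but with smaller steps. Log2 fold changes were -0.65 in WB436B cells (SE 0.0461, adjusted p = 4.4e-06), -0.22 in STAT3 siRNA cells (adjusted p = 0.0041) and -0.43 for WB436B against STAT3 siRNA (adjusted p = 6e-05).

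DSC2 had 0.335, 0.55 and 0.471 FPKM in WB436B libraries, 1.93, 1.64 and 1.7 FPKM in STAT3 siRNA libraries and 1.6, 1.71 and 1.51 FPKM in vehicle libraries. WB436B libraries were all lower than the rest and below the 1 FPKM of the filter, and the other groups overlapped. DSC2 was thus tested only through the other groups, so its lower value in WB436B cells is no independent evidence. In WB436B cells DSC2 was at 28.2% of the vehicle mean, and its log2 fold change was -0.85 (SE 0.0754, adjusted p = 1.7e-05), a value that the pseudocount of 1 FPKM makes small. It was -1.64 with a pseudocount of 0.1, -1.15 with 0.5, -1.32 with equal totals and -0.44 with quantile normalization, called in each. WB436B against STAT3 siRNA gave -0.93 (adjusted p = 1.4e-05), and STAT3 siRNA against vehicle gave 0.08 with an interval of -0.09 to 0.25 (adjusted p = 0.4). This gene has the fewest fragments, an estimated 84 to 929 a library. Weak genes were often lower in WB436B cells: of the 3652 tested genes with a vehicle mean of 1 to 3 FPKM, 50.1% were called lower and 13.4% higher, with a median of -0.28. Any part of depth or of weak signal in the DSC2 value was not tested.

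Since DSC2 was so weak, DSC3 made up nearly all desmocollin FPKM, with 98.1%, 97.0% and 97.5% in WB436B libraries, 93.0%, 93.5% and 93.7% in STAT3 siRNA libraries and 94.7%, 94.6% and 95% in vehicle libraries. No groups overlapped, with WB436B highest and STAT3 siRNA lowest. The differences were 2.81 percentage points for WB436B against vehicle, -1.37 for STAT3 siRNA against vehicle and 4.18 for WB436B against STAT3 siRNA, each with an exact permutation p of 0.1 (0.133 adjusted). In WB436B libraries the isotype of stratified epithelia had a lower share among desmogleins and a higher share among desmocollins than in vehicle libraries. DSC3 itself fell there, so its higher share rests on the low DSC2 values. DSC2 passed the filter only through the other groups, so this rise in share is no independent evidence either. Summed desmogleins over summed desmocollins came to 6.67 ± 0.129 in WB436B cells, 4.74 ± 0.107 in STAT3 siRNA cells and 5.46 ± 0.277 in vehicle cells (SD, n = 3).

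PERP, the tetraspan membrane protein of the junction, was the gene of the 10 with the largest fold change in STAT3 siRNA cells. It had 100.7, 98.7 and 97.5 FPKM in WB436B libraries, 75.0, 70.9 and 79.0 FPKM in STAT3 siRNA libraries and 141.6, 146.9 and 165.2 FPKM in vehicle libraries. The groups did not overlap, and the WB436B libraries lay between the others. STAT3 siRNA cells were at 49.6% of the vehicle mean (log2 fold change -1.0, SE 0.0639, adjusted p = 6.3e-06) and WB436B cells at 65.4% (-0.60, SE 0.0639, adjusted p = 4.8e-05). WB436B cells were higher than STAT3 siRNA cells by 0.40 (SE 0.0639, adjusted p = 0.00067), or by 0.58 relative to the median of tested genes. All 3 calls held under the 3 other scalings.

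The plakophilins, which gather desmoplakin at the plaque and steady the cadherins, moved apart from one another. PKP1, the plakophilin of stratified epithelia, had 20.3, 21.2 and 22.1 FPKM in WB436B libraries, 15.1, 14.4 and 15.1 FPKM in STAT3 siRNA libraries and 24.5, 23.7 and 22.6 FPKM in vehicle libraries. STAT3 siRNA libraries were clearly the lowest, and the gap between WB436B and vehicle was narrow. PKP1 fell by 0.63 on the log2 scale in STAT3 siRNA cells (SE 0.0482, adjusted p = 1.6e-05). In WB436B cells the fold change was -0.15 (adjusted p = 0.024), which was -0.02 relative to the median of tested genes and 0.01 with median-of-ratios scaling, where it was not called. This change was called under only 1 of the 3 other scalings. The call was also lost without vehicle replicate 1 or 2 or WB436B replicate 1 or 2 (adjusted p = 0.06 to 0.084). WB436B cells exceeded STAT3 siRNA cells by 0.48 (adjusted p = 4.1e-05).

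PKP2, the plakophilin shared by simple epithelia and heart muscle, was the only one of the 10 genes called higher than vehicle in either treatment with the values as deposited. It had 10.2, 9.77 and 11.1 FPKM in WB436B libraries, 6.01, 6.43 and 6.0 FPKM in STAT3 siRNA libraries and 5.49, 6.18 and 5.87 FPKM in vehicle libraries. Every WB436B library exceeded all others, and STAT3 siRNA and vehicle overlapped. WB436B cells were at 177% of the vehicle mean (log2 fold change 0.73, SE 0.0608, adjusted p = 1.2e-05) and exceeded STAT3 siRNA cells by 0.67 (adjusted p = 2.5e-05). In STAT3 siRNA cells the value was 0.06 with an interval of -0.08 to 0.20 (adjusted p = 0.42). Scaling moved the WB436B value only upwards, to between 0.79 and 0.88.

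PKP3, the most abundant plakophilin, was the only one of the 10 genes called in none of the 3 comparisons. It had 36.2, 35.5 and 34.9 FPKM in WB436B libraries, 30.8, 33.4 and 33.7 FPKM in STAT3 siRNA libraries and 37.8, 34.1 and 32.5 FPKM in vehicle libraries. The vehicle range covered all WB436B values. The log2 fold change was 0.03 in WB436B cells (interval -0.11 to 0.17, adjusted p = 0.65) and -0.09 in STAT3 siRNA cells (interval -0.23 to 0.05, adjusted p = 0.26). The WB436B value changed sign with quantile normalization (-0.10) and without vehicle replicate 3 (-0.01), and with median-of-ratios scaling it was called higher (0.19, adjusted p = 0.028).

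Summed plakophilin FPKM was 67.1 ± 0.857 in WB436B cells, 53.6 ± 1.51 in STAT3 siRNA cells and 64.2 ± 3.47 in vehicle cells (SD, n = 3). PKP1 made up 30.5%, 31.9% and 32.4% of that sum in WB436B libraries, 29.1%, 26.6% and 27.5% in STAT3 siRNA libraries and 36.2%, 37.0% and 37.0% in vehicle libraries. Vehicle libraries had the highest PKP1 share and STAT3 siRNA libraries the lowest, with no overlap. The differences were -5.18 percentage points for WB436B against vehicle, -9.01 for STAT3 siRNA against vehicle and 3.83 for WB436B against STAT3 siRNA (exact permutation p = 0.1 each, 0.133 adjusted). The PKP2 share was 15.3%, 14.7% and 16.2% in WB436B libraries, 11.6%, 11.8% and 11% in STAT3 siRNA libraries and 8.09%, 9.66% and 9.64% in vehicle libraries. WB436B libraries were highest here and vehicle libraries lowest. The PKP3 share averaged 53.0 ± 1.49% in WB436B cells, 60.8 ± 1.29% in STAT3 siRNA cells and 54.1 ± 1.39% in vehicle cells (SD, n = 3).

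**Figure D3:**
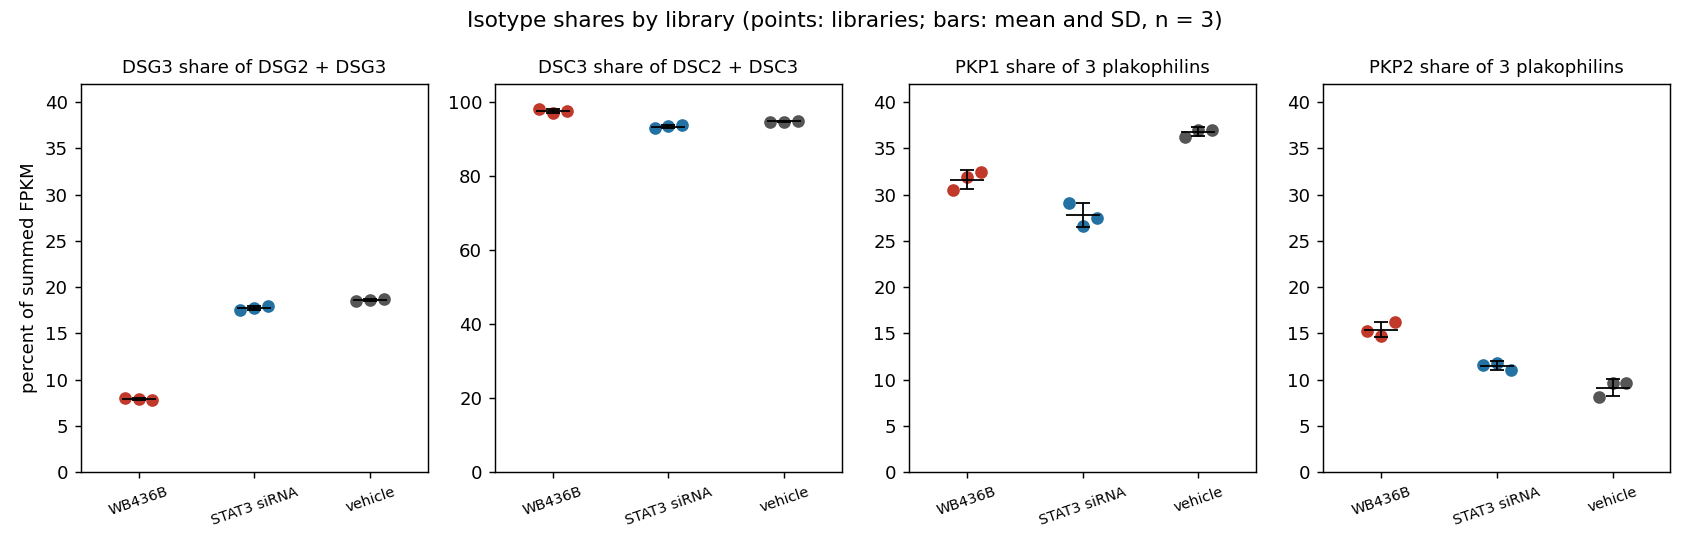
Share of each isotype in the summed FPKM of its family, in percent, by library for WB436B, STAT3 siRNA and vehicle; bars are the mean and SD of 3 libraries, and the DSC3 axis runs to a higher value than the others. The DSG3 share is near 8% in WB436B libraries and between 17.5% and 18.7% in the others, while the PKP2 share is highest in WB436B libraries.

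The linkers to keratin both fell in WB436B cells. JUP, which binds cadherin tails in desmosomes and in adherens junctions, had 60.0, 66.1 and 62.5 FPKM in WB436B libraries, 74.1, 80.4 and 73.4 FPKM in STAT3 siRNA libraries and 91.8, 85.5 and 101.8 FPKM in vehicle libraries. The groups did not overlap, with WB436B lowest and vehicle highest. The log2 fold change was -0.56 in WB436B cells (SE 0.0709, adjusted p = 0.00015) and -0.29 in STAT3 siRNA cells (SE 0.0709, adjusted p = 0.0093). WB436B against STAT3 siRNA gave -0.27 (adjusted p = 0.0095), which came to -0.04 and was not called with median-of-ratios scaling (adjusted p = 0.66).

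DSP, which anchors keratin filaments to the plaque, had 91.2, 97.4 and 102.1 FPKM in WB436B libraries, 116.8, 112.6 and 110.3 FPKM in STAT3 siRNA libraries and 135.1, 133.0 and 117.6 FPKM in vehicle libraries. The order matched that of JUP, though vehicle replicate 3 was only just above the highest STAT3 siRNA library. In WB436B cells DSP fell by 0.40 on the log2 scale (SE 0.0643, adjusted p = 0.00059). STAT3 siRNA cells gave -0.18 (SE 0.0643, adjusted p = 0.045), and this call was lost in most alternatives, among them equal totals (adjusted p = 0.3) and quantile normalization (adjusted p = 0.16), and in 6 of 9 fits that left out a library. WB436B against STAT3 siRNA gave -0.22 (adjusted p = 0.014), with the opposite sign and no call under median-of-ratios scaling (0.01). This difference was called under only 1 of the 3 other scalings and in 7 of 9 fits that left out a library.

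JUP over DSP was 0.658, 0.679 and 0.612 in WB436B libraries, 0.634, 0.714 and 0.666 in STAT3 siRNA libraries and 0.68, 0.643 and 0.866 in vehicle libraries. Vehicle replicate 3 stood above the rest and all groups overlapped. No difference was detected (exact permutation p = 0.4 for WB436B against vehicle, 0.6 for STAT3 siRNA against vehicle and 0.5 for WB436B against STAT3 siRNA; 0.48, 0.6 and 0.545 adjusted). The STAT3 siRNA difference, -0.0582, was 0.0102 without vehicle replicate 3.

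Added over all 10 genes, the transcript level was 454.3, 470.3 and 479.6 FPKM in WB436B libraries, 475.7, 465.7 and 469.0 FPKM in STAT3 siRNA libraries and 638.0, 633.9 and 632.7 FPKM in vehicle libraries. With these values as deposited the treatments overlapped and both lay below vehicle, although the genes that made up the difference were in part not the same. Sums under other scalings were not computed. With median-of-ratios scaling the median log2 fold change of the 10 genes in WB436B against STAT3 siRNA was 0.18, against -0.05 as deposited. The overlap of the treatments may therefore depend on the scaling. In STAT3 siRNA cells PERP and DSG2 were the genes with the largest falls in FPKM, while in WB436B cells they were PERP, DSP and JUP. Within a group the coefficient of variation of these genes ran between 1.66% and 8.87%, apart from 24.0% for DSC2 in WB436B libraries. Over all tested genes, weak ones included, the median was 7.73% in WB436B, 7.25% in STAT3 siRNA and 7.86% in vehicle libraries. JUP (8.87%) and PERP (8.19%) in vehicle libraries and DSC2 in STAT3 siRNA (8.67%) and WB436B libraries exceeded it.

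Genes that work beside the desmosome were described from 5 lists, with changes given as log2 fold changes. Counts are to be read against all tested genes, of which 41.1% were called lower and 24.9% higher in WB436B against vehicle, and 22.3% lower and 29.8% higher in STAT3 siRNA against vehicle. Plakins, large linkers to the cytoskeleton, had 2 of 5 members lower and 1 higher in WB436B cells, shares close to those of all genes: PPL fell by 0.65 (adjusted p = 8.8e-05), PLEC fell by 0.51 (adjusted p = 0.0031) and MACF1, a linker of actin and microtubules, rose by 0.30 (adjusted p = 0.0045). STAT3 siRNA cells had 1 of 5 lower and 0 higher: PPL, at -0.22 (adjusted p = 0.038), whose groups overlapped and whose call was lost under 2 of 3 scalings and in 7 of 9 fits that left out a library. PKP4, a relative of the plakophilins found in both kinds of junction, was at 0.15 in WB436B cells (adjusted p = 0.063) and 0.02 in STAT3 siRNA cells (adjusted p = 0.82).

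Adherens junction genes were divided. In WB436B cells 4 of 11 fell and 1 rose, with a median of -0.05, and neither share exceeded that of all genes. NECTIN4, an adhesion molecule of the immunoglobulin family, was the largest of them at -1.58 (adjusted p = 1.4e-07), with 2.05, 2.05 and 2.07 FPKM in WB436B libraries against 8.09, 7.76 and 8.54 FPKM in vehicle libraries. NECTIN1 fell by 0.57 (adjusted p = 1.6e-05) and CDH3, P-cadherin, fell by 0.33 (adjusted p = 0.0044), a call lost with median-of-ratios scaling. VCL, vinculin, was called higher at 0.49 (adjusted p = 0.025) although its groups overlapped. Its level was 31.5 FPKM in WB436B replicate 1 but 49.0 and 51.3 in the others, against 28.6 to 32.4 FPKM in vehicle libraries, and the call was lost in 4 of 9 fits that left out a library. In STAT3 siRNA cells 5 of 11 fell and 2 rose, with a median of -0.17. CDH1, E-cadherin, rose by 0.40 (adjusted p = 0.00023) while CTNNA1, the alpha-catenin that ties cadherins to actin, fell by 0.40 (adjusted p = 0.0023). NECTIN1 was at -0.23 (adjusted p = 0.0051) and AFDN, the nectin-binding protein afadin, at -0.36 (adjusted p = 0.013), and each lost its call under 1 of 3 scalings. With equal totals the split for STAT3 siRNA was 2 lower and 2 higher, and with median-of-ratios scaling that for WB436B was 2 lower and 3 higher.

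Hemidesmosomes fasten epithelial cells to the basement membrane. Of their 6 genes 3 fell and 0 rose in STAT3 siRNA cells, against 22.3% of all genes lower. COL17A1, the collagen XVII of the complex, fell by 1.21 (adjusted p = 5.6e-06). The integrin subunit genes ITGB4, at -0.42 (adjusted p = 0.00094), and ITGA6, at -0.36 (adjusted p = 0.0024), fell with it. In WB436B cells 2 of 6 fell and 0 rose (4 and 0 with quantile normalization), against 41.1% of all genes lower: COL17A1, at -0.54 (adjusted p = 0.00026), and PLEC, which with DST is also on the list of plakins. COL17A1 had 111.5, 117.1 and 126.3 FPKM in WB436B libraries, 73.5, 79.4 and 69.8 FPKM in STAT3 siRNA libraries and 180.6, 180.6 and 157.1 FPKM in vehicle libraries, the same order of groups as PERP and with no overlap.

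Keratins are the filaments that desmosomes anchor. In WB436B cells 8 of 13 rose and 4 fell, with a median of 0.39, against 24.9% of all genes higher and 41.1% lower. With STAT3 siRNA 7 of 13 rose and 3 fell (5 and 4 with quantile normalization), with a median of 0.24, against 29.8% of all genes higher and 22.3% lower. KRT17, a keratin of basal and activated epithelium, had 786.3, 754.2 and 784.2 FPKM in WB436B libraries, 929.8, 1016.6 and 979.3 FPKM in STAT3 siRNA libraries and 376.5, 375.9 and 379.3 FPKM in vehicle libraries. It rose by 1.04 in WB436B cells (adjusted p = 3.4e-07) and by 1.37 in STAT3 siRNA cells (adjusted p = 2.6e-07), and neither overlapped with vehicle. KRT18, of simple epithelium, rose by 0.87 in WB436B cells (adjusted p = 5e-07) and by 0.48 in STAT3 siRNA cells (adjusted p = 2.8e-05). KRT15, a basal keratin, fell by 1.85 (adjusted p = 1.5e-07) and KRT19, a ductal keratin, fell by 1.09 (adjusted p = 3.2e-07) in WB436B cells. In STAT3 siRNA cells KRT80 rose by 0.96 (adjusted p = 4.5e-06) and KRT14, the basal partner of KRT5, fell by 1.40 (adjusted p = 1e-05). Keratin genes resemble one another, and how the authors divided shared fragments is not given, so KRT14, KRT16 and KRT17 values are uncertain in that respect.

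The last list held regulators of epithelial and junction genes: transcription factors, the enzymes ADAM10, ADAM17 and PRKCA, the catenin ARVCF and the beta-catenin inhibitor CTNNBIP1. Of its 19 genes 15 were tested, some of them only through the groups in which they were higher. GRHL1 reached 1 FPKM in vehicle libraries alone, with 1.18, 1.25 and 1.32 FPKM. It had 0.722, 0.848 and 0.682 FPKM in STAT3 siRNA libraries and 0.66, 0.542 and 0.656 FPKM in WB436B libraries. Its being tested thus depended on its vehicle level, and its falls are no independent evidence. GRHL3, at 0.579 to 0.816 FPKM in vehicle libraries, passed only through the treated groups and counts as higher in both. OVOL2, at 0.527 to 0.896 FPKM in WB436B libraries, passed only through the other groups and counts as lower in WB436B cells. These calls of GRHL3 and OVOL2 are likewise no independent evidence. In WB436B cells 11 of the 15 fell and 2 rose (8 and 3 with quantile normalization), with a median of -0.47. KLF5, an epithelial transcription factor, fell by 1.5 (adjusted p = 5.8e-08), with 38.3, 39.6 and 39.2 FPKM in WB436B libraries against 111.7, 116.6 and 108.4 FPKM in vehicle libraries. GRHL2, a Grainyhead factor of epithelial genes, fell by 1.03 (adjusted p = 4.8e-07), PRKCA, a kinase that modulates desmosomal adhesion, fell by 0.63 (adjusted p = 1.3e-05) and ADAM17, a protease that sheds DSG2, fell by 0.59 (adjusted p = 3.1e-05). STAT3 siRNA cells had 6 lower and 3 higher, with a median of -0.09: ADAM10, another sheddase, fell by 0.37 (adjusted p = 0.00045), GRHL1 fell by 0.36 (adjusted p = 0.0017), OVOL1 fell by 0.30 (adjusted p = 0.0024) and KLF5 fell by 0.26 (adjusted p = 0.0011).

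**Figure D4:**
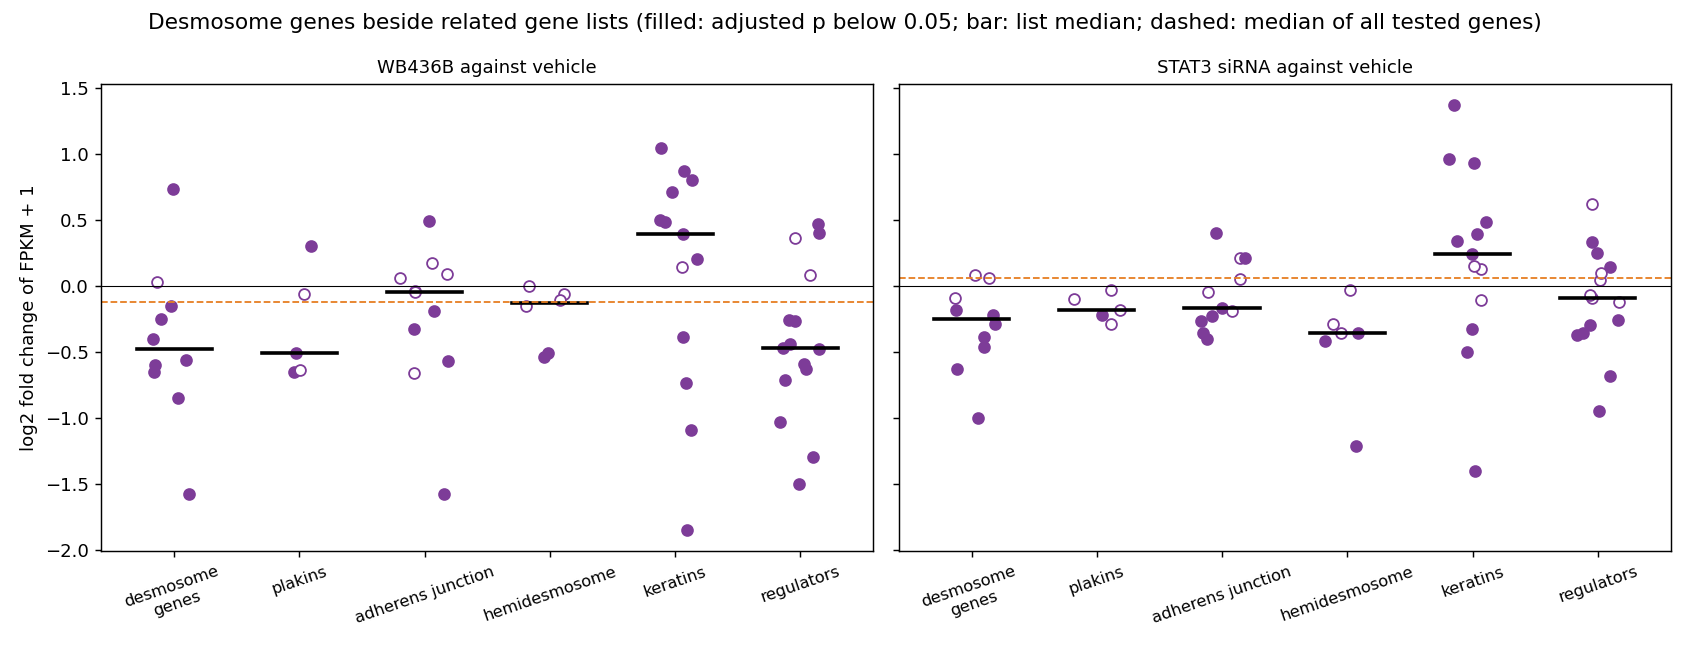
Log2 fold change of FPKM + 1 (vertical axis) of desmosome genes and of 5 related lists, in WB436B against vehicle and in STAT3 siRNA against vehicle; filled points have an adjusted p below 0.05, thick bars are list medians and the dashed line is the median of all tested genes. The desmosome medians of -0.48 and -0.26 lie below the dashed line and the keratin medians of 0.39 and 0.24 above it.

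WB436B cells against STAT3 siRNA cells had 1 plakin lower and 1 higher, 4 adherens junction genes lower and 3 higher, 0 hemidesmosome genes lower and 3 higher, 7 keratins lower and 5 higher, and 6 regulators lower and 1 higher. Over all tested genes 44.1% were lower and 20.0% higher in this comparison. With median-of-ratios scaling the same counts were 0 and 2, 1 and 4, 0 and 4, 5 and 5, and 4 and 4, so that only the direction of the hemidesmosome genes was kept by this setting; with quantile normalization they were 1 lower and 1 higher.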

How the data were processed

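RNA-seq of 9 BxPC3 libraries was analysed from 1 table of FPKM values that the authors deposited, with 60564 human Ensembl identifiers. Per the submitters' processing notes, Bowtie 0.12.2 and the build mm8 were named. As mm8 is a mouse build and the identifiers are human, the true build is unsure, and gene coordinates are not printed for the table. How FPKM was computed, with which annotation, strand setting and filter, is not given in the sources used here. Count models were not applied to FPKM. Library depth was read from the spacing of low FPKM values in genes with 1 transcript in GENCODE release 29.

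Identifiers with at least 1 FPKM in at least 3 libraries (12747, 21% of all) were tested on log2(FPKM + 1), a scale that understates changes of weak genes, with limma 3.58.1 in R 4.3.3. The fit had a variance trend, group means over all 9 libraries, 6 residual degrees of freedom and Benjamini-Hochberg adjustment over all identifiers tested. A value was called at an adjusted p below 0.05. Data were simulated for WB436B against vehicle with 200 changed genes among 12256. Of the changes of 1 on the log2 scale 90% were recovered, and of those of 0.5, 63%. False calls were 9 of 162. Far fewer genes changed there than the 65.9% called in the data, and no common shift was simulated. The recovery and false calls in the data may therefore differ. Shares and ratios were compared by two-sided exact permutation tests, which cannot go below 0.1 for 3 against 3 libraries. Promoter windows came from RefSeq (GRCh38.p14).

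The 10 genes and all lists were chosen with earlier results of these data known. All 10 were named, with STAT3. From each other list the text could name up to 4 called genes of the smallest adjusted p in each comparison against vehicle. GRHL3 and OVOL2 were named besides, for how they passed the filter. Alternatives covered the pseudocount, the filter, scaling, the variance model, the samples in the fit, a replicate block, the threshold and each library left out.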

Additional observations from a re-analysis of the deposited data

How the results depend on the processing

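The count of desmosome genes called stayed within 1.5 times in every alternative run. It was 7 to 9 in WB436B against vehicle, 6 to 7 in STAT3 siRNA against vehicle and 7 to 9 in WB436B against STAT3 siRNA. With only 10 genes this band could not be left upwards, and the count ignores direction. In WB436B against STAT3 siRNA 5 lower and 3 higher became 3 lower and 5 higher with median-of-ratios scaling. Of the fold changes recomputed, 614 kept direction and call, 29 lost the call, 7 gained it and 7 changed sign. With median-of-ratios scaling, alone or with the replicate block, PKP1 in WB436B against vehicle was 0.00736 and DSP in WB436B against STAT3 siRNA was 0.00866. With quantile normalization PKP3 was -0.1 in WB436B against vehicle and -0.0115 in WB436B against STAT3 siRNA. Leaving out 1 library moved PKP3 in WB436B against vehicle between -0.0133 and 0.093, and the JUP to DSP difference in STAT3 siRNA against vehicle between -0.102 and 0.0102, both at the extreme without vehicle replicate 3. The cause was not tested. Whether replicate numbers pair the samples was not settled. Deviations from group means correlated at -0.0847 to 0.158 between libraries of 1 number. Vehicle and STAT3 siRNA libraries of 1 number gave 0.0419, 0.119 and 0.158, against -0.124 to 0.0144 for their other pairs. Pairs of 1 number that included a WB436B library gave -0.0847 to 0.0376, against -0.0462 to 0.074 for other such pairs. With 3 libraries a group these values cannot exclude pairing. With the replicate block 8, 6 and 8 genes were called in the 3 comparisons as listed first; the calls lost were DSP in STAT3 siRNA (adjusted p = 0.082) and PKP1 in WB436B (adjusted p = 0.056) against vehicle. The shares kept direction in every alternative, with an exact p of 0.25 under the block, the smallest that 3 pairs allow. At a filter of 5 FPKM DSC2 was not tested. DSC2, the weakest of the genes, rests on as few as an estimated 84 fragments, in WB436B replicate 1.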

Other observations

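Some regulators and plakins varied far more between libraries of 1 group than the desmosome genes did; these were chosen after their values were seen. TP63, whose protein activates PERP and other genes of stratified epithelia, had 9.55, 9.57 and 10.8 FPKM in WB436B libraries, 13.2, 13.2 and 12.5 FPKM in STAT3 siRNA libraries and 37.9, 34.7 and 13.2 FPKM in vehicle libraries. Vehicle replicate 3 was thus level with the STAT3 siRNA libraries for TP63, while for PERP it was the highest of the 9 libraries, at 165.2 FPKM. That contrast rests on 1 library, and any link between TP63 and PERP levels was not tested. The log2 fold change of TP63 was -1.30 in WB436B cells (SE 0.327, limma adjusted p = 0.0074) and -0.95 in STAT3 siRNA cells (SE 0.327, adjusted p = 0.038). STAT3 siRNA and vehicle overlapped, and that call was kept in 1 of 9 fits that left out a library and lost with equal totals (adjusted p = 0.066). Without vehicle replicate 1 it was -0.69 there (adjusted p = 0.12) and without vehicle replicate 2 it was -0.75 (adjusted p = 0.12). Without vehicle replicate 3 it was -1.77 in WB436B cells (adjusted p = 1.6e-06) and -1.41 in STAT3 siRNA cells (adjusted p = 1.1e-05).

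KLF4, an epithelial differentiation factor, had 7.15, 8.5 and 6.66 FPKM in WB436B libraries, 8.77, 9.44 and 8.9 FPKM in STAT3 siRNA libraries and 3.1, 6.79 and 7.78 FPKM in vehicle libraries, and it was not called against vehicle (adjusted p = 0.23 and 0.067). EVPL, the plakin envoplakin, had 2.12, 6.24 and 6.05 FPKM in WB436B libraries, 3.71, 8.92 and 7.78 FPKM in STAT3 siRNA libraries and 13.8, 5.72 and 5.05 FPKM in vehicle libraries. Replicate 1 was low in both treated groups and high in vehicle for EVPL, and all groups overlapped.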
